A study of Mus musculus with 30 samples.

Results

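Immortalised wild type mouse embryonic fibroblasts (MEFs) exposed to 100 mM NaCl for 2 h are described here, as measured on 2 of the 30 arrays of the series. The members are the arrays whose titles name wild type MEFs, NaCl and 2 h without the p38 inhibitor SB203580, and they come from 2 independent experiments. Each array is a 2-colour Agilent 44K whole genome array with RNA of the treated cells in Cy5 and, in Cy3, 1 pool of RNA from 2 untreated wild type cultures. The groups set beside them were wild type MEFs with 100 mM NaCl for 45 min or 8 h, with SB203580 alone, and with SB203580 followed by NaCl for 2 h, and MEFs that lack the p38α kinase (p38α-/-), untreated or with NaCl for 2 h, with 2 arrays in each. The inhibitor was given at 10 µM for 30 min before the stress according to the treatment protocol, while the sample titles name another dose and time. All cells were growing exponentially in medium with serum, all wild type arrays share the same pool, and no untreated wild type culture was measured in Cy5. Each ratio therefore holds the spread of the treated cultures and not that of the pool, and fewer cells of a kind and less RNA per cell cannot be told apart.

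High extracellular salt draws water out of a cell, shrinks it and concentrates its ions. Within minutes the stress-activated kinases p38 and JNK are switched on. They act, p38 in part through kinases such as MSK, on factors that sit at immediate early genes. Such genes need no new protein synthesis to be transcribed. Over hours the factor NFAT5 raises transporters and enzymes that let the cell replace salt with harmless organic osmolytes, among them aldose reductase and the myo-inositol and betaine carriers. In fibroblasts the early answer includes AP-1 and Egr factors, phosphatases that switch MAP kinases off again, and proteins that shorten the life of mRNAs.

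On the 2 arrays 18504 of 21689 named genes were measured. The log2 ratio of treated cells over the pool varied more on the first array, with an SD over genes of 0.48, than on the second, with 0.33, and 66.1% of the genes lay on the same side of 0 on both. Of the 44 markers fixed for fibroblasts and for other cell types, 11 of 14 fibroblast markers, among them Col1a1, Col3a1, Vim and Pdgfra, were well above background in Cy5 on both arrays. So were 9 of 9 leukocyte, 6 of 6 endothelial, 6 of 7 epithelial and 7 of 8 muscle and neural markers, and since 92.4% and 96.8% of all spots passed that mark, it does not separate cell types on these arrays.

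After 2 h of NaCl 49 genes stood at least 2.5-fold above the pool on both arrays with an adjusted p under 0.05 from limma, and 11 stood as far below it. These are 0.265% and 0.0594% of the genes tested. With no demand on size, 960 genes (5.19%) were above and 867 (4.69%) below the pool by the same test with both arrays on 1 side. The highest were Fos, Jun, Dusp1, Ptgs2, Adamts1 and Ier5, and the lowest was the uncharacterised transcript 2900017G11Rik. With the replicate number within each genotype as a block, which for the wild type arrays is also the day of scanning, the counts by the test were 1582 and 1302. That block takes the difference between the replicate numbers out of the error and leaves it in the mean. Without the first array 176 and 143 genes passed the test, and without the second 836 and 398, where 158 and 55 genes passed 2.5-fold on the first array alone. Of the 49 genes, 36 had their larger ratio on the first array, and 38 of the 49 were among the 50 that passed without it.

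**Figure D1:**
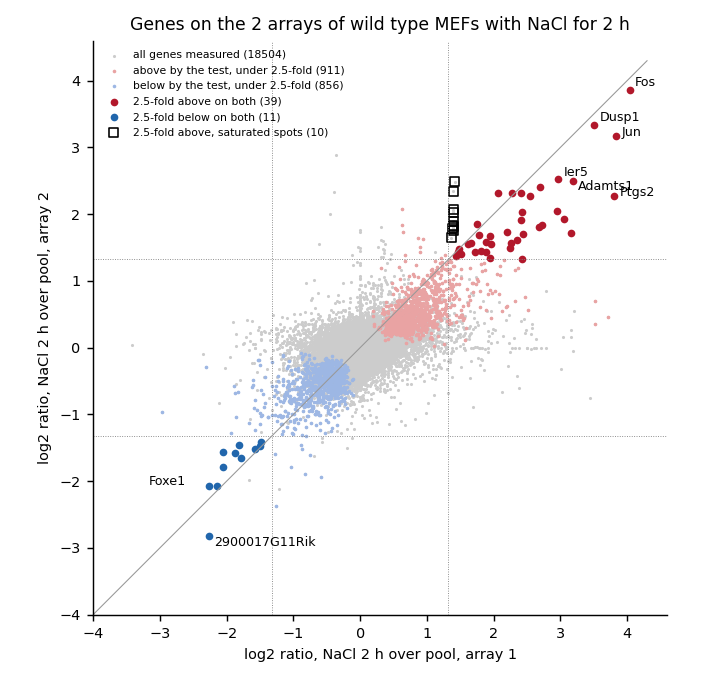
Log2 ratio of NaCl for 2 h over the pool on array 1 (horizontal axis) and array 2 (vertical axis) for 18504 genes, with dotted lines at 2.5-fold and the diagonal as equality. Fos, Dusp1 and Jun lie farthest to the upper right, and the 10 open squares are genes with saturated spots, which line up at 1.37 to 1.42 on the horizontal axis.

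Not all 49 entries carry a fold change. For 10 of them the pool's spot was saturated on both arrays, and these were mt-Atp6, Pfc, Spr, Hist1h1t, BC025575, H1foo, Zfp13, Shc3, 1110008E08Rik and Pitpnm1. On the first array 31 spots were saturated in both channels, and their log2 ratios ran only from 1.34 to 1.40, with a median of 1.40. Those genes have no measured ratio and are given no fold. A further 2 entries, Olfr960 and Abpd, were not well above background in a channel on either array. Of the 49, 34 rested on a single probe. The remaining 37 genes were neither saturated nor dim, and when saturated spots were left out, an alternative chosen after seeing the data, 39 genes passed.

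The AP-1 factors, dimers of Fos and Jun proteins that bind promoters of stress and growth genes, held the highest values. Fos had log2 ratios of 4.05 and 3.87, given throughout for arrays 1 and 2 in that order, with a mean of 3.96 ± 0.13 (SD, n = 2) or 15.6-fold, with an adjusted p of 1.2e-06. Jun was at 3.84 and 3.17, a mean of 3.51 ± 0.47 or 11.4-fold (adjusted p 3.31e-08). Both genes were far above the pool on each array. Junb (0.94 and 1.63, adjusted p 0.0172) and Atf3 (1.34 and 0.99, adjusted p 0.00211) rose less, and each lost its call without the first array, Junb also without the second. Fosb, at 0.26 and 0.05, was not called (adjusted p 0.28). In all, 4 of 9 measured AP-1 members rose and none fell, with a median log2 ratio of 0.60 against 0.00 over all genes. For this list and the lists below, the share of all genes was 5.19% above and 4.69% below the pool. The lists were chosen with earlier results of these data known, so their counts describe the members and were not tested.

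Among other immediate early factors 11 of 19 measured members rose and none fell, with a median of 0.87. Ier5, an immediate early gene that acts with heat shock factor, was at 2.97 and 2.53, 6.73-fold above the pool (adjusted p 3.46e-08). Egr1, a zinc finger factor of the growth response, was at 2.07 and 2.32 (adjusted p 5.39e-05); unlike most of the 49 genes, it was higher on the second array. Klf4, a zinc finger factor of growth arrest, was at 2.73 and 1.83 (adjusted p 0.000626) and was not called without the first array. Maff, a small Maf factor that pairs with other leucine zipper proteins, was at 2.35 and 1.61 (adjusted p 4.1e-05). Mycn, listed on the array as Nmyc1, was at 1.95 and 1.67 (adjusted p 1.05e-07), and its 2 probes read 0.73 and 2.90. Egr3, Egr4, Klf2 and Nr4a3 did not pass the test.

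Genes that restrain MAP kinases formed the next group. Dusp1, the phosphatase that removes phosphate from p38 and JNK, was at 3.51 and 3.34, a mean of 3.42 ± 0.11 or 10.7-fold (adjusted p 6.54e-08). Dusp10, which acts on the same kinases, was at 2.42 and 1.33 (adjusted p 0.000206), and Dusp4, which acts on ERK and JNK, at 1.80 and 1.44 (adjusted p 0.000128). Spry2, an inhibitor of growth factor signalling upstream of ERK, was at 1.78 and 1.69 (adjusted p 1.77e-07), with its probes at 0.40 and 3.08. Dusp1 and Spry2 agreed closely between the arrays, whereas Dusp10 differed by about 1 log2 unit and lost its call without the first array. Dusp10 also had a mean above the pool with SB203580 alone and did not differ from that group by the test. Of 16 measured members 6 rose, none fell, and the median was 0.35. In the p38 pathway 3 of 14 members rose and 1 fell (5.19% and 4.69% over all genes), with mean log2 ratios between -0.56 and 0.45. Mapk14, which encodes p38α, was at 0.47 and 0.05 (adjusted p 0.539). As a check of the labels, Mapk14 was at -1.09 and -1.93 on the arrays of p38α-/- MEFs with NaCl for 2 h.

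Among genes for factors that act on the life of mRNAs 4 of 10 measured members rose and none fell, with a median of 0.70. Zfp36, also called tristetraprolin, which binds AU-rich elements and brings in the decay machinery, was at 2.41 and 1.92 (adjusted p 1.98e-06). Its relative Zfp36l1 was at 2.28 and 2.31, a mean of 2.30 ± 0.02 (adjusted p 6.79e-08), the closest agreement between the arrays among the 15 highest genes. Tob1, an antiproliferative partner of the deadenylase complex, was at 2.25 and 1.5 (adjusted p 8.03e-06), and Btg1 of the same family at 1.41 and 0.74 (adjusted p 0.00273). Zfp36l2 and Btg2 were not called. Tob1 and Btg1 also had means above the pool with SB203580 alone and did not differ from that group by the test.

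Secreted and surface proteins made up a further part of the list. Ptgs2, the inducible cyclooxygenase of prostaglandin synthesis, was at 3.81 and 2.28, a mean of 3.05 ± 1.08 or 8.25-fold (adjusted p 4.45e-05), the widest gap between arrays among the 6 highest genes. Adamts1, a secreted metalloprotease, was at 3.19 and 2.5 or 7.18-fold (adjusted p 0.000199). Edn1, the vasoconstrictor peptide endothelin, was at 2.69 and 2.41 (adjusted p 0.000128). Epha2, an ephrin receptor kinase, was at 2.44 and 1.71 (adjusted p 0.000115), and F3, tissue factor, which starts coagulation, at 3.15 and 1.72 (adjusted p 2.08e-05). Ptgs2, Adamts1 and Epha2 were each the only member of their list at 2.5-fold above the pool on both arrays. In the prostaglandin list 3 of 12 members rose, among 12 Adamts proteases 2 rose, and among 15 Eph receptors and ephrins 2 rose while 3 fell, of which Efnb1 was at -0.48 and -0.64. Over all genes 5.19% rose and 4.69% fell.

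Feedback on TGF-beta and BMP signalling was represented by Id2, an inhibitor of helix-loop-helix factors, at 2.54 and 2.27 (adjusted p 1.77e-07), Smad7, the inhibitory Smad, at 2.42 and 2.32 (adjusted p 3.46e-08), and the corepressor Tgif1, listed as Tgif, at 2.16 and 1.31 (adjusted p 0.000161). Id3 went the other way and fell, so the list of 13 held 5 members above and 1 below the pool. The homeobox factors Six4 (2.96 and 2.05, adjusted p 0.00486) and Dlx2 (3.05 and 1.93, adjusted p 0.000451) completed the highest 15 genes together with Sgk1, listed as Sgk, the kinase that promotes sodium transport, at 2.67 and 1.81 (adjusted p 0.000146). Six4 and Dlx2 were not called without the first array. Sgk1 was the only member of the NFAT5 list at 2.5-fold.

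The promoters of Fos, Dusp1, Epha2 and Zfp36 are printed as examples in which motifs were found. The windows of Jun, Ptgs2 and Ier5, among others, held no match to any motif searched. Each window is the 250 bases before the start site in RefSeq on build GRCm38.p6, read 5′ to 3′ along the gene's strand in lower case, with matches to the motifs searched in capitals. The motifs, sought on both strands, were the cyclic AMP response element TGACGTCA, its short form TGACG (also counted inside the full element), the AP-1 site TGANTCA, the Egr site GCGNGGGCG, TATAAA, and the CArG box and the tonicity-responsive element by name, the last printed in none.
Fos, chr12:85473640-85473889, plus strand: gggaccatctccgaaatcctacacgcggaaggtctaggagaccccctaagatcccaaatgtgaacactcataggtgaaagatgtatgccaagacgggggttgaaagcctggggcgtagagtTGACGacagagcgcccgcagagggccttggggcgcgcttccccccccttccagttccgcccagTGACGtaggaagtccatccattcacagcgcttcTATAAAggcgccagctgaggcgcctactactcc
Dusp1, chr17:26508473-26508722, minus strand: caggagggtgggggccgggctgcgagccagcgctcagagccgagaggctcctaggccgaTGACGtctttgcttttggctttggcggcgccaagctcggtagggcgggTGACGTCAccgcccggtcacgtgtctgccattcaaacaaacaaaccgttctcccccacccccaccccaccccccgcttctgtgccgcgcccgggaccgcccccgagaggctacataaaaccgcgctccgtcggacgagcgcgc
Epha2, chr4:141300971-141301220, plus strand: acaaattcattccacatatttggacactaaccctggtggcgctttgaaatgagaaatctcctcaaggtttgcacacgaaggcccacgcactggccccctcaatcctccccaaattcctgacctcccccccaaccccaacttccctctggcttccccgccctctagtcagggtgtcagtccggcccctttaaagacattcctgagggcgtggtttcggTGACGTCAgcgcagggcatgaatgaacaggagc
Zfp36, chr7:28379229-28379478, minus strand: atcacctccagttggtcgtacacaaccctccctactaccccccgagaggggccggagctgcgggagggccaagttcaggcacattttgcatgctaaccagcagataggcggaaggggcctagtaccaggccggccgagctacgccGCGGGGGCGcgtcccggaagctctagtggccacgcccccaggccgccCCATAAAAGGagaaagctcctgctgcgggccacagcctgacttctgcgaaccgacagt
Fos held 2 short elements, starting at -129 and -66, and a TATAAA at -33. Dusp1 and Epha2 held the full element, starting at -143 and -33, and Zfp36 an Egr site at -105 and a CArG box at -58.

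Of the 37 genes neither saturated nor dim, 32 had a RefSeq window, and 3 of these (9.38%), Dusp1, Epha2 and Maff, held TGACGTCA, against 2.36% of the 11910 measured genes with a window and 1.55% of all 32851 windows. The short form was in 12 of the 32 (37.5%) against 25.0% of measured genes and 17.8% of all windows, and TATAAA in 9 (28.1%) against 12.6% and 12.4%. The AP-1 site was in 2 (6.25%) against 7.22% and 6.75%, the Egr site in 4 (12.5%) against 8.21% and 4.70%, the CArG box in 1 (3.12%) against 1.45% and 1.47%, and the tonicity-responsive element in 0 against 4.59% and 4.31%. These are counts of letters in a short window and were not tested.

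Most genes of the osmolyte programme were not above the pool at 2 h. Nfat5 was at 0.03 and -0.07 (adjusted p 0.917), its 5 probes ranging from -0.37 to 0.93, and its brightest probe alone gave 0.93 and passed the test. Akr1b3, aldose reductase, was at -0.39 and -0.27 (adjusted p 0.709). The value of Akr1b3 came from 3 probes on array 1 but 2 on array 2, so the closeness of the arrays is not that of the same probes. Its 2 probes measured on both gave means of -1.01 and -0.38. Slc5a3, the sodium myo-inositol carrier, was at -0.10 and 0.29 (adjusted p 0.766). Slc6a12, the betaine carrier, was measured on the first array alone, at 0.01. Averaged over probes, Nfat5, Akr1b3 and Slc5a3 did not pass the test. Slc38a2, an amino acid carrier that brings in neutral amino acids as osmolytes, was above the pool at 1.06 and 0.17 (adjusted p 0.0230). Its value came from 3 probes on array 1 but 2 on array 2, and the 2 probes measured on both gave means of -0.09 and 0.43. Slc38a2 lost its call without the first array and with wild type arrays alone. Of 12 measured members of the list 2 rose, Sgk1 and Slc38a2, and none fell, with a median of 0.04. Among amino acid transporters 2 of 18 rose and 3 fell, with a median of 0.01, and Slc7a8, a carrier of neutral amino acids, was at -0.44 and -0.64 and lost its call without either array.

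**Figure D2:**
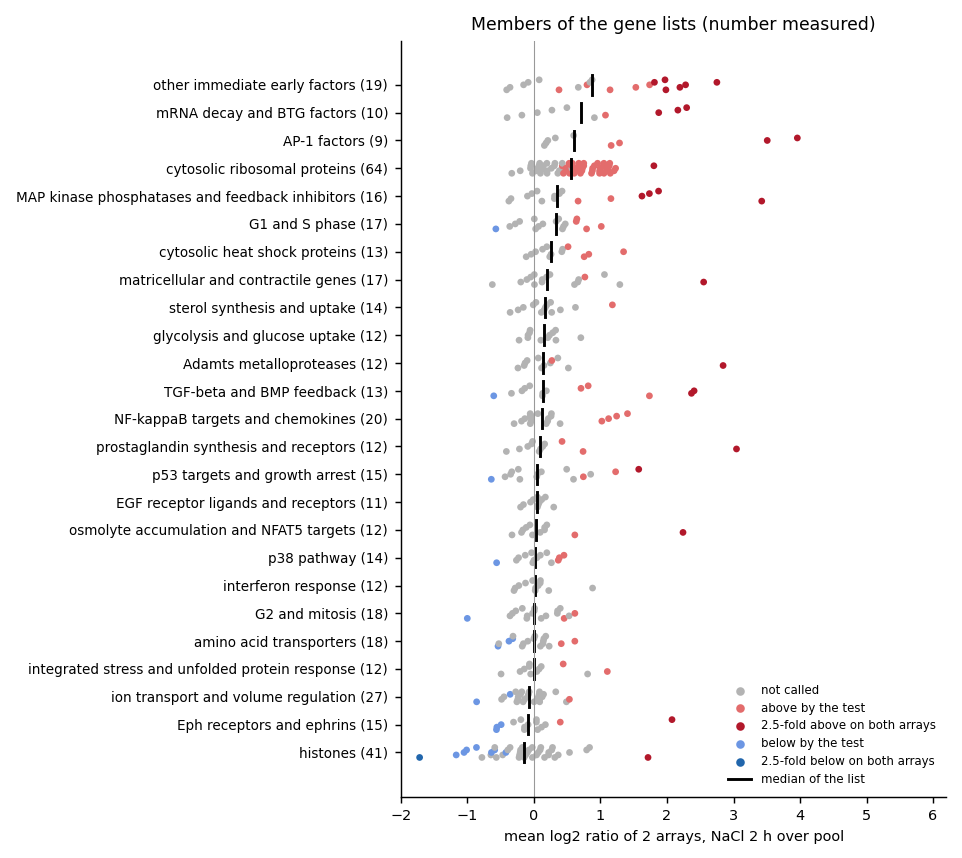
Mean log2 ratio over the 2 arrays (horizontal axis) of each measured member of the gene lists, with colours for genes above or below the pool and a bar at each list's median. The immediate early, mRNA decay and AP-1 lists have the highest medians (0.87, 0.70 and 0.60), the ribosomal protein genes lie as a block with a median of 0.56, and the osmolyte and ion transport lists are centred near 0.

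Lists of inflammatory and stress genes moved in part, beside 5.19% of all genes above and 4.69% below the pool. Among NF-kappaB targets and chemokines 4 of 20 rose, namely Cxcl10 (1.95 and 0.87), Ccl20 (1.6 and 0.88), Nfkbiz (1.42 and 0.82) and the deubiquitinase gene Tnfaip3 (1.33 and 0.71), and each lost its call without the first array. Cxcl10 was also at a mean of 1.32 with SB203580 alone and 1.27 in untreated p38α-/- MEFs. Among 15 p53 targets 3 rose, led by Gadd45b, an adaptor of stress kinase signalling, at 1.72 and 1.43 (adjusted p 1.19e-05), while Phlda3 fell (-0.41 and -0.87). Of 13 heat shock genes 4 rose, with Hspa1a at 1.52 and 1.18 although its 3 probes ran from -0.26 to 2.54. In the integrated stress and unfolded protein list 2 of 12 rose, Dnajb9 (1.48 and 0.72) and Vldlr (0.53 and 0.35). Both were above the pool without salt as well, with means of 0.91 for Dnajb9 and 0.87 for Vldlr with SB203580 alone. In untreated p38α-/- MEFs their means were 0.26 and 0.23. None of 11 EGF receptor ligands and receptors, of 12 interferon genes or of 12 glycolytic genes passed the test in either direction. The G1 and S phase list held 4 of 17 above and 1 below the pool, and the G2 and mitosis list 2 of 18 above and Top2a, a topoisomerase of dividing cells, below it at -0.81 and -1.19.

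Ribosomal protein genes formed the largest group by number, with 39 of 64 (60.9%) above the pool, against 5.19% of all genes, and none below. Rpl39 was the highest, at 1.76 and 1.85 (adjusted p 3.48e-06), followed by Rps25 (1.34 and 1.12), Rpl38 (1.22 and 1.19) and Rps29 (1.17 and 1.13). The list also lay above the pool on arrays without stress. Its median was 0.56 with NaCl for 2 h, 0.41 with SB203580 alone, where the medians of the 2 arrays were 0.73 and 0.11, and 0.23 in untreated p38α-/- MEFs. None of 55 members was higher with NaCl for 2 h than with SB203580 alone (smallest adjusted p 0.123). Rpl39 itself was at 1.69 and 0.96 with SB203580 alone. With the pool always in Cy3 and no dye swap, a shift of the treated cells, of the pool and of the dyes cannot be told apart for these genes.

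Among the genes below the pool, characterised ones were few. The 10 lowest were 8 transcripts known by clone or locus names, the forkhead gene Foxe1 and the histone gene Hist1h2ai. 2900017G11Rik was at -2.27 and -2.82 (adjusted p 3.38e-06), 4930467D21Rik at -2.15 and -2.07 (adjusted p 0.00446) and A930027G11Rik at -1.5 and -1.48 (adjusted p 0.000523). With SB203580 alone A930027G11Rik was also low, at a mean of -2.04, whereas 2900017G11Rik was at 0.41. For 4930467D21Rik neither unstressed group was measured on both arrays. Foxe1 was at -2.27 and -2.08 (adjusted p 0.000201) but was at -2.65 with SB203580 alone and -2.66 in untreated p38α-/- MEFs, and its treated signal was not well above background on the first array. For 4 of the 10 the treated signal was not well above background on either array, so that only a bound can be given, from each array's lowest signal well above background after normalization between arrays. B230117O15Rik was at least 2.05-fold lower than the pool (adjusted p 5.99e-06), 2610030P05Rik at least 1.67-fold (adjusted p 0.00248), D230046B21Rik at least 1.54-fold (adjusted p 0.00304) and D5Ertd798e at least 1.35-fold (adjusted p 0.00859). When only spots well above background in both channels were kept, 6 of the 11 genes were at 2.5-fold, and with normexp background correction and loess together 3 were.

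Histones, the proteins that package DNA, were the list with the most members below the pool by number. Of 41 measured, 8 (19.5%) fell, against 4.69% of all genes, and 1 rose, the latter, Hist1h1t, through saturated spots. By share, Eph receptors and ephrins were as high, with 20% below the pool. Hist1h2ai was at -1.79 and -1.65 (adjusted p 2.21e-05), Hist2h2ac at -1.33 and -1.01 (adjusted p 0.000327) and the linker histone gene Hist1h1b at -0.99 and -1.11 (adjusted p 0.000175). The list's median was -0.15, and replication-dependent histone genes resemble each other closely in sequence, so probes may share transcripts. Without stress the members differed. Hist1h1b had a mean of -1.36 with SB203580 alone and -1.26 in untreated p38α-/- MEFs, whereas Hist2h2ac was at -0.11 and -0.07 there. Hist1h2ai had a mean of -0.86 with SB203580 alone. Among 34 members tested against SB203580 alone, Hist2h2ac was the one called lower with NaCl for 2 h (adjusted p 0.0327).

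The time points were compared directly, since the pool cancels in the difference. Against 8 h of NaCl, 696 genes (4.47%) were higher and 521 (3.34%) lower at 2 h of 15577 tested. Fos, at 4.05 and 3.87 at 2 h, was at -0.66 and 0.88 at 8 h, a difference of 3.85 ± 0.46 (SE, adjusted p 8.37e-05). Jun was at -0.46 and 0.13 at 8 h, a difference of 3.67 ± 0.31 (adjusted p 4.93e-06). Egr1 passed below the pool, to -1.35 and -1.20, a difference of 3.47 ± 0.36 (adjusted p 3.34e-05), and Zfp36 was at -0.62 and -0.07 (adjusted p 2.69e-05). All 4 genes had left their 2 h level with no overlap between the arrays. Gadd45b (-0.33 and -0.32 at 8 h), F3 (-0.24 and 0.30), Smad7 (0.81 and 1.03), Zfp36l1 (0.67 and 1.21) and Mycn (0.52 and 0.53) were also higher at 2 h. Dusp1 and Ptgs2 kept high values, with 2.79 and 2.89 for Dusp1 (adjusted p of the difference 0.127) and 3.29 and 2.56 for Ptgs2 (adjusted p 0.961).

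Genes lower at 2 h than at 8 h included Hspa4l, Slc38a2 and Nfat5. Hspa4l, a chaperone of the Hsp110 family, was at 0.17 and 0.22 at 2 h and at 2.39 and 1.85 at 8 h, a difference of -1.93 ± 0.16 (adjusted p 7.66e-06). Slc38a2 was at 1.39 and 1.74 at 8 h (adjusted p 0.0157) and Nfat5 at 0.53 and 0.58 (adjusted p 0.0117), both lost without the second 2 h array. In the osmolyte list 3 of 8 members were lower at 2 h and none higher, against 3.34% of all genes, and among amino acid transporters 5 of 13 were lower. Akr1b3, at 0.80 on average at 8 h, and Slc5a3, at 0.13, did not differ by the test (adjusted p 0.399 and 0.975). Slc6a12 could not be tested. Named after their values were seen, the chemokine genes Cxcl5 and Ccl7 were lower at 2 h than at 8 h by 4.59 and 2.25 on the log2 scale. In the opposite direction 4 of 12 sterol synthesis genes, among them Insig1 and Sqle, and 4 of 17 G2 and mitosis genes, Ccna2 and Ccnb2 included, were higher at 2 h. Of all genes tested, 4.47% were higher. The block raised the counts to 1005 and 741. Without the first 2 h array the counts were 230 and 360, without the second 602 and 250, without the first 8 h array 332 and 479, and without the second 611 and 259.

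**Figure D3:**
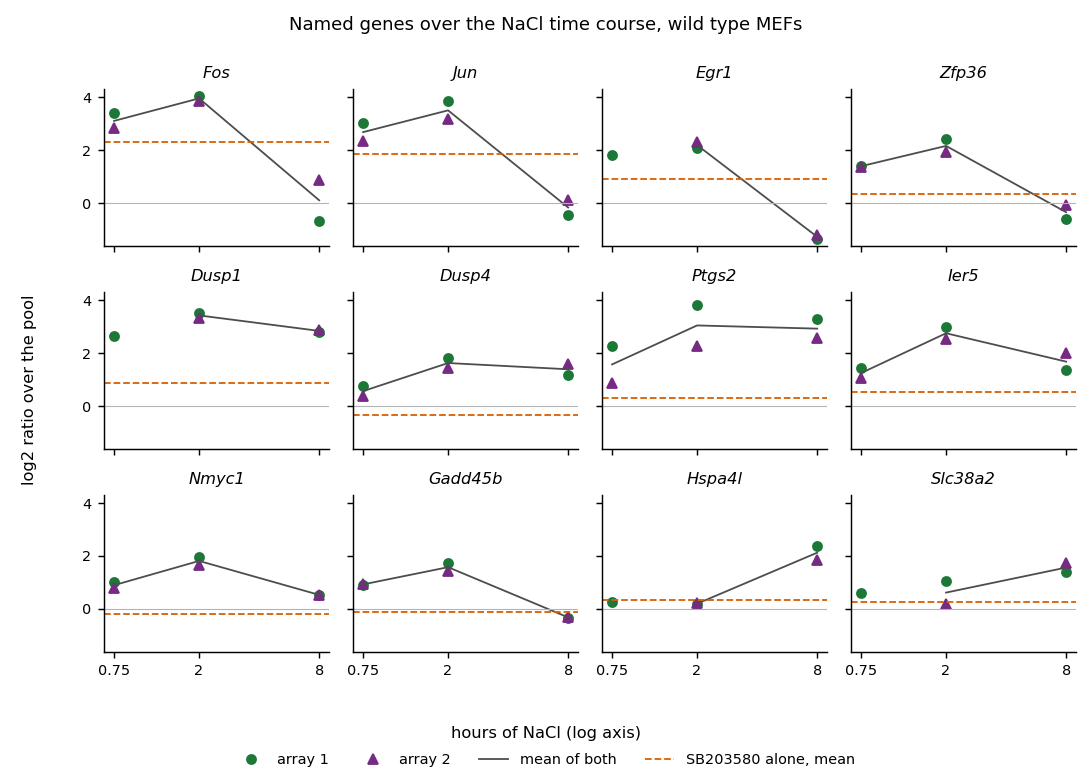
Log2 ratio over the pool (vertical axis) against hours of NaCl (horizontal log axis) on each array of wild type MEFs, with the mean where both arrays were measured and a dashed line at the mean with SB203580 alone. Fos, Jun, Egr1, Zfp36 and Gadd45b lay between -1.35 and 0.88 at 8 h, Dusp1 and Ptgs2 between 2.56 and 3.29, and Hspa4l was highest at 8 h.

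Against 45 min of NaCl few genes passed the test of the difference, with 2 higher (0.0154%) and 5 lower (0.0386%) of 12968 tested and 767 at an unadjusted p under 0.05. Ier5 was at 1.43 and 1.06 at 45 min, a difference of 1.5 ± 0.25 (adjusted p 0.0367), and Tiparp, a poly-ADP-ribose polymerase gene, differed by 1.13 (adjusted p 0.0367). The 5 lower genes, 6720401G13Rik, BC002059, Zfp958 (listed as BC003267), BC029127 and BC029716, were named after their values were seen and differed by -1.03 to -0.76. Fos (3.40 and 2.82 at 45 min, adjusted p 0.906) and Jun (3.02 and 2.35, adjusted p 0.640) were already high at 45 min. Adamts1 and Ptgs2, at means of 0.82 and 1.57 at 45 min, were higher at 2 h by 2.02 and 1.47 without being called (adjusted p 0.322 and 0.596). Zfp36l1 and Mycn were higher by 1.22 and 0.92 (adjusted p 0.0569 and 0.0762). A difference that misses the threshold with 2 arrays a group does not show equal levels at both times. The second 45 min array had 44.8% of its spots marked as outliers, which left Dusp1, Egr1 and Smad7 with 1 array at that time. With the block 10 and 7 genes passed, and with wild type arrays alone 0 and 0. Without the first 2 h array 9 and 0 passed, without the second 23 and 1, without the first 45 min array 0 and 3, and without the second 1 and 1.

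SB203580 alone was the only unstressed wild type group in Cy5, and a difference from it cancels the pool and any constant effect of the dyes. The difference also holds any effect of SB203580 itself, with its sign reversed, which cannot be told apart from that of salt. Of 14806 genes tested 73 (0.493%) were higher with NaCl for 2 h and 140 (0.946%) lower. Smad7 had the smallest p of all genes tested, at 0.23 and -0.39 with SB203580 alone, a difference of 2.45 ± 0.18 (adjusted p 9.66e-06). Dusp1 was at 1.1 and 0.62 (difference 2.57, adjusted p 8.41e-05), Ier5 at 0.87 and 0.20 (2.22, adjusted p 9.37e-05), Zfp36l1 at 0.36 and 0.05 (2.09, adjusted p 8.41e-05) and Mycn at -0.17 and -0.25 (2.02, adjusted p 1.35e-05). Adamts1 had the largest difference among the genes called higher, from -1.04 and -0.58 (difference 3.65, adjusted p 0.00162), and Edn1 and Ptgs2 also differed (adjusted p 0.00185 and 0.00884). Fos was itself at 2.40 and 2.25 with SB203580 alone, and its difference of 1.64 ± 0.46 was not called (adjusted p 0.105). Jun was at 2.05 and 1.64 (difference 1.66, adjusted p 0.00781), Dlx2 at 2.51 and 0.72 (adjusted p 0.529) and Egr1 at 0.65 and 1.19 (adjusted p 0.104). In untreated p38α-/- MEFs Fos was at 0.91 and 0.09 and Jun at 0.60 and 0.22. Fos, Jun and Dlx2 were thus above the pool without salt as well, and among others so were Dusp10, Tob1 and Btg1. With SB203580 alone Dusp10 had a mean of 1.04 and Btg1 of 0.85. Dusp10, Tob1 and Btg1 did not differ from that group by the test, with differences of 0.83, 0.38 and 0.22 (adjusted p 0.357, 0.563 and 0.799). In untreated p38α-/- MEFs Dusp10 and Tob1 had means of 1.06 and 0.97, whereas Btg1 was at -0.13.

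By list, 5 of 15 immediate early factors, 3 of 13 MAP kinase phosphatases and feedback inhibitors, 2 of 8 mRNA decay factors and 1 of 4 AP-1 factors were higher than with SB203580 alone, and none was lower. Of all genes tested, 0.493% were higher and 0.946% lower. Among the 10 lowest genes 2900017G11Rik (0.87 and -0.05 with SB203580 alone, adjusted p 9.37e-05) and B230117O15Rik (0.84 and 0.21, adjusted p 8.41e-05) were lower with NaCl. Of osmolyte genes, ion transporters and amino acid transporters none differed. The block gave 131 and 213 genes. Without the first SB203580 array the counts were 22 and 27, without the second 111 and 212, without the first 2 h array 43 and 83, and without the second 94 and 65, and the calls of Jun, F3, Id2, Epha2 and Ptgs2 were each lost without 1 or more of these arrays.

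With p38 inhibited before the stress no gene passed the test of the difference, 0 of 16729 (0%) higher and 0 lower, with 533 genes at an unadjusted p under 0.05 and a smallest adjusted p of 0.164. Fos was at 3.10 and 3.68 with SB203580 and NaCl, Jun at 3.82 and 3.99, Dusp1 at 3.40 and 3.52, Ptgs2 at 2.18 and 2.21, and Ier5 at 1.83 and 2.09. For Jun and Dusp1 the arrays of both groups overlapped, while Fos, Ptgs2 and Ier5 lay below both arrays with NaCl alone. Smad7 was at 1.27 and 1.32, Zfp36l1 at 0.96 and 1.12, Zfp36 at 0.71 and 1.04 and Mycn at 0.94 and 0.98, each also below both arrays with NaCl alone. With the block 3 genes passed, Zfp36l1 (difference 1.25, adjusted p 0.0134), Hs3st1, a heparan sulfate sulfotransferase gene (1.38, adjusted p 0.0190), and Ranbp6 (1.02, adjusted p 0.0110), the last pair named after their values were seen. Without the first NaCl array 7 genes were higher, without the second 16, and without either SB203580 array 1 was higher and 1 lower. A difference that misses the threshold with 2 arrays a group does not show that these genes were the same in both groups.

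The p38α-/- MEFs with NaCl for 2 h were measured against the same wild type pool. Fos was at 3.39 and 4.42, Jun at 2.98 and 3.20, Dusp1 at 3.77 and 3.84, Adamts1 at 3.77 and 3.39, and Ier5 at 2.71 and 2.82. Of these, Dusp1 and Adamts1 were above both wild type arrays with NaCl for 2 h. Smad7 (1.82 and 1.90), Zfp36l1 (1.84 and 1.89) and Id2 (1.76 and 1.54) were below both wild type arrays. These arrays differ from the wild type ones in cell line as well as in the kinase, and the difference was not tested.

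**Figure D4:**
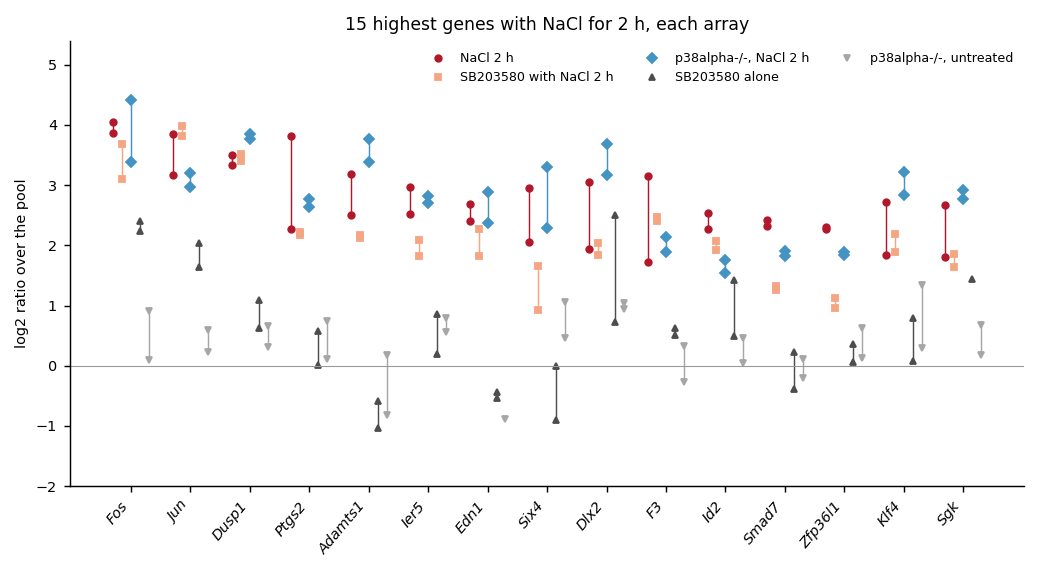
Log2 ratio over the pool (vertical axis) of the 15 highest genes with NaCl for 2 h on each array, in wild type MEFs with NaCl, with SB203580 and NaCl and with SB203580 alone, and in p38α-/- MEFs with NaCl or untreated, with a line joining the 2 arrays of a group. Fos and Jun sit well above 0 with SB203580 alone, while Smad7 and Zfp36l1 with SB203580 and NaCl lie below both arrays with NaCl alone.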

How the data were processed

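Spot and background intensities were extracted with Agilent Feature Extraction, version 8.1.1.1 per the file headers and 9.1 in the submitters' processing notes, and the authors deposited its log10 ratio of the dye-normalized Cy5 signal over the Cy3 signal. The authors also deposited a series matrix of log2 values whose normalization and centring are not stated; it ran the same way as the array files (r from 0.78 to 0.96), with medians from -0.01 to 0.06.

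Control spots and spots marked as outliers were left out, log10 ratios were turned into log2, and values were averaged first within each probe and then within each gene, 33453 of 41174 probes having a gene name. Newer symbols came from RefSeq (15887 of 16836 NM accessions matched). limma 3.58.1 in R 4.3.3 fitted 15 group means to the 30 arrays, with Benjamini-Hochberg adjustment over genes measured on all arrays compared. Python 3.11.15 with pandas 2.3.3 and numpy 2.4.6 was used, and the fit was tested on simulated data. The Cy5 and Cy3 intensities and their deposited background flags gave the bounds. The number of arrays limits the precision.

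Named genes were the 15 highest and 10 lowest among those at 2.5-fold on both arrays with an adjusted p under 0.05. To these were added up to 4 called members of each of 30 lists, and 20 genes of the osmotic and p38 literature. That literature includes the study itself, which reported some of the 20 from these arrays. The members and lists were chosen with earlier results of these data known. Replicate numbers paired the wild type samples: the difference between the 2 arrays correlated with that of each of the 10 other wild type groups (r from 0.13 to 0.56), and among wild type arrays the numbers follow the day of scanning. Alternatives were outlier spots kept, the series matrix, normexp background correction (offset 50) followed by loess, each gene's brightest probe, dim or saturated spots left out, a replicate block, wild type arrays alone, an intensity trend, and each array left out. Counts over the ion transport list against the pool are not reported here.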

Additional observations from a re-analysis of the deposited data

Results flagged for a closer look

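Time points differed for the following named genes by limma's test of NaCl for 2 h minus the other time, adjusted over all genes, with 2 arrays a group. Against 45 min, Ier5 was higher by 1.5. Against 8 h, the log2 difference was 3.85 for Fos, 3.67 for Jun, 3.47 for Egr1, 2.51 for Zfp36, 2.41 for F3, 1.45 for Smad7, 1.35 for Zfp36l1, 1.28 for Nmyc1 and 1.07 for Ier5. It was -2.79 for B230117O15Rik, -2.39 for 2900017G11Rik, -1.93 for Hspa4l, -0.95 for Slc38a2 and -0.58 for Nfat5. B230117O15Rik was not well above background in the treated cells on either 2 h array, so its value is that of the fit and not a measured size.

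Among 6543 probes without a gene name, which the comparisons above did not use, 15 stood at least 2.5-fold above the pool on both arrays and 16 below it, with an adjusted p under 0.05. Of the 15, 5 had saturated spots. The highest read 3.24 and 2.64, and the lowest -2.78 and -2.05.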

How the results depend on the processing

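The 126 tests of named genes kept their direction and their side of the threshold in 109 cases under every alternative other than left-out arrays. The log2 ratio of Nfat5 against the pool, -0.02, turned to 0.0784 with normexp and loess, 0.016 with the series matrix and 0.93 with the brightest probe, and without 1 array of NaCl for 2 h it ran from -0.0736 to 0.0302 and Slc5a3 from -0.10 to 0.288. With outlier spots kept, 1556 and 2704 genes were above and below the pool, 14 higher and 17 lower than at 45 min, 816 lower than at 8 h and 177 higher than with SB203580 alone. The series matrix gave 1881 and 2856 against the pool, 22 and 53 against 45 min, 1228 and 1008 against 8 h, and 164 and 292 against SB203580 alone. Against 45 min normexp gave 9 and 20 genes, the brightest probe 11 and 11, wild type arrays alone 0 and 0, and both well-measured spots and the intensity trend 4 higher. At 2.5-fold below the pool, normexp left 3 and well-measured spots 6. Asking 2.5-fold of the mean gave 85 and 21 genes, and 2-fold on each array 104 and 40. The cause was not tested.

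With the replicate block, by replicate number within each genotype, 1582 genes were above and 1302 below the pool, 10 higher than at 45 min, 131 higher and 213 lower than with SB203580 alone, and 3 higher than with SB203580 and NaCl. Without 1 array, where the lone array is assumed to vary like the other groups, the counts ran from 176 to 836 above and 143 to 398 below the pool by the test, and from 50 to 158 above and 15 to 55 below at 2.5-fold. They ran from 0 to 23 higher and 0 to 3 lower than at 45 min, 230 to 611 and 250 to 479 for 8 h, 22 to 111 and 27 to 212 for SB203580 alone, and 1 to 16 and 0 to 1 for SB203580 with NaCl. With 2 arrays a group, small differences could not be resolved, and spots near background or saturated give no ratio.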
